A study of Mus musculus with 6 samples.

Results

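The genes described here encode the proteins of the cytosolic ribosome, the particle that translates messenger RNA outside mitochondria. They were taken from the gene table by symbol: Rpl or Rps followed by a number and at most a short ending (a, x, y or l, then at most 1 digit), Rplp0 to Rplp2, and Rpsa, with pseudogene names left out. The rule found 85 of 23204 genes, of which 31 are small subunit proteins, 43 are large subunit proteins, 3 form the stalk of the large subunit, and 8 are near-copies, genes whose symbol extends that of another member. The rule used names only and no measured value. RNA was sequenced from C57BL/6 mouse osteoclasts, the bone-resorbing cells of the monocyte lineage, grown from bone marrow cells kept for 2 days in the growth factor M-CSF and then in M-CSF together with RANKL, which turns precursors into osteoclasts. Wild type was the genotype of libraries 1, 4 and 6, while libraries 2, 3 and 5 carried the label Tet2Rank–/–; Tet3aRank+/–, with columns named as Tet2 knockout and Tet3 heterozygous. TET2 and TET3 convert methylated cytosine in DNA to oxidised forms. The labels do not say what drives the deletion, which exons are removed, what Rank stands for in these names, how old the mice were, or whether animals were pooled. Both genotypes had the same culture, and the question the design poses is what the loss of TET enzymes does in these cells.

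Each ribosome pairs a small subunit, which holds the mRNA and reads its codons, with a large subunit, which joins the amino acids and feeds the new chain through an exit tunnel. Apart from the stalk, each protein is present in a single copy per ribosome, and so their mRNAs are usually made at similar rates and are among the most abundant of a cell. Most of these mRNAs begin with a run of pyrimidines, the 5′ terminal oligopyrimidine (TOP) motif, through which the kinase mTORC1 and the protein LARP1 control their translation and stability.

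The start-site sequences are shown first because the pyrimidine run is the feature these genes are best known to share. RefSeq promoter windows (build GRCm38.p6) were found for 63 of the 85 genes, with 75 windows in all. A run of at least 10 C or T bases within 20 bases of the start, on the transcribed strand, was found in 32.0% of the 75 windows and in 7.39% of all 32851 windows of the same length. With runs of at least 8 bases, the shares were 42.7% and 16.0%, so they depend on the length asked for. Other letter strings were searched over windows of 300 bases, from 250 before to 50 after the start, on both strands. CCGGAAG, the core of ETS-family sites, was found in 36.0% of the ribosomal protein windows and 8.86% of all windows, TCTCGCGA in 16.0% and 0.995%, and GGGCGG, the core of GC boxes, in 58.7% and 35.7%. AAGATGG, the core of YY1 sites, was in 16.0% and 6.34%, while TATAAA was in 10.7% and 13.6%. A match is a description of letters and does not show binding. The 100 bases from 80 before to 20 after the start follow for the 4 genes with the lowest mutant to wild-type fold and for the 4 nearest 0, among subunit genes with a single RefSeq window, with capitals marking runs of at least 5 C or T that reach into the 20 bases on either side of the start. They are Rpl13a at chr7:45128726-45128825 on the minus strand, Rpsa at chr9:120127686-120127785 on the plus strand, Rpl14 at chr9:120571437-120571536 on the plus strand and Rpl36a at chrX:134585574-134585673 on the plus strand. The other four are Rps9 at chr7:3703961-3704060 on the plus strand, Rps27 at chr3:90213629-90213728 on the minus strand, Rpl38 at chr11:114668500-114668599 on the plus strand and Rpl11 at chr4:136053374-136053473 on the minus strand.
Rpl13a: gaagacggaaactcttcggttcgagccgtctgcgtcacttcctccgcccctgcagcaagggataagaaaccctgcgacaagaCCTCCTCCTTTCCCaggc
Rpsa: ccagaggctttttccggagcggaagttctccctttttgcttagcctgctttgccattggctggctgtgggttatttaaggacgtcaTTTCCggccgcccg
Rpl14: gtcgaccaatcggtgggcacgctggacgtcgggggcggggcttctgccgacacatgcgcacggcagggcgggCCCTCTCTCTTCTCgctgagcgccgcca
Rpl36a: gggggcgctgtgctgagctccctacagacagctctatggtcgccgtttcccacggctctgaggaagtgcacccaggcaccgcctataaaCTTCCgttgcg
Rps9: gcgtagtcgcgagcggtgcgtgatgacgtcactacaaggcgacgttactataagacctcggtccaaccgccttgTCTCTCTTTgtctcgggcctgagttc
Rps27: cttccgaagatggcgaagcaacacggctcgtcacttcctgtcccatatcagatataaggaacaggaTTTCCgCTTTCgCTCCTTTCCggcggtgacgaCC
Rpl38: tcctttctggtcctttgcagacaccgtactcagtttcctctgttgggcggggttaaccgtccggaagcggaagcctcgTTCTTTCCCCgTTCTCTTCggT
Rpl11: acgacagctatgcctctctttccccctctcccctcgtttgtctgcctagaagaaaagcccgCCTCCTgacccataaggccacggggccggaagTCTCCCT

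Runs stand near the start in both sets, up to 14 bases long in Rpl13a and Rpl14 and up to 10 in Rpl38, while Rpsa and Rpl36a have only 5. Among tested genes, the 23 with a run of 10 or more had a median log2 fold change of -0.22, and the 38 with a window but no such run had -0.17. The difference between these medians was not tested.

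Total counts were between 8794973 and 14267135 per library. Counts scaled by TMM (CPM, read counts relative to library size, adjusted for library composition) were tested with edgeR's quasi-likelihood test over 14040 genes that passed a filter on low counts, with Benjamini-Hochberg adjustment. As a check of the labels, Tet2 stood at 71.7, 80.9 and 79.3 CPM in wild-type libraries and at 58.2, 45.5 and 52.3 CPM in those labelled mutant, or 67.3% of the wild-type mean (log2 fold change -0.57, SE 0.120, edgeR adjusted p = 0.0924, two-sided exact permutation p = 0.1). Tet3 stood at 117% of wild type (log2 fold change 0.23, SE 0.117, edgeR adjusted p = 0.360, two-sided exact permutation p = 0.2). The smallest p that 3 against 3 libraries allow in the permutation test is 0.1. The counts cover whole genes, and reads outside a deleted exon do not check the deletion. Since Tet3 was not lower, the groups are called by their labels.

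All 10 osteoclast markers, such as Ctsk and Acp5, were above 0 in every library, but their summed level was uneven. It ranged from 15142 to 39699 CPM in wild-type libraries, highest in library 6, and from 2966 to 12373 CPM in libraries labelled mutant, lowest in library 2, with a median log2 fold change of -1.53. Of 10 macrophage markers 8 had a mean above wild type in the libraries labelled mutant (median log2 fold change 0.89, summed level 5754 to 7236 against 8948 to 9565 CPM), and none of these was at 0 in any library. Neutrophil (8 of 8), stromal (6 of 7), dendritic cell (5 of 6 tested), lymphocyte (3 of 3 tested) and erythroid markers (5 of 5 tested) also had means mostly above wild type. Summed, they ranged in wild type and then in libraries labelled mutant from 248 to 889 and 434 to 1351 CPM for neutrophil, 1124 to 3010.3 and 1000.5 to 4126 for stromal, 759 to 1924 and 1567 to 5855 for dendritic cell, 5.45 to 8.05 and 13.3 to 15.0 for lymphocyte, and 0 to 58.0 and 0.372 to 64.2 for erythroid markers. At least 1 library read 0 for 2 lymphocyte, 1 dendritic cell and all 6 erythroid markers. The osteoclast, macrophage and lymphocyte sums did not overlap between the genotypes, and nor did the ribosomal protein shares described next. The stromal, neutrophil, dendritic cell and erythroid sums overlapped. What part any of these cell types had in the ribosomal protein levels was not tested. In bulk RNA, fewer cells of a type and less RNA per cell cannot be told apart.

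Ribosomal protein genes took a smaller share of all counts in the libraries labelled mutant. Their share was 4.33%, 4.50% and 4.57% of counts in wild-type libraries 1, 4 and 6. It was 4.08%, 3.76% and 3.87% in those labelled mutant, 2, 3 and 5. The groups did not overlap, with library 3 lowest and library 6 highest. The means were 4.46% ± 0.124 (SD, n = 3) and 3.90% ± 0.160 (SD, n = 3), 12.6% lower. Counting error is small beside this, with 95% exact Clopper-Pearson intervals of 4.31% to 4.34% in library 1 and 4.06% to 4.09% in library 2, the closest pair across the genotypes. The small subunit genes held 1.84% ± 0.0856 of counts in wild type and 1.60% ± 0.0655 in the libraries labelled mutant, 13.2% lower. The large subunit genes held 2.31% ± 0.0480 and 2.03% ± 0.110, 11.8% lower, and the stalk genes 0.295% ± 0.0169 and 0.248% ± 0.00758, 16.0% lower. The ratio of small to large subunit counts was 0.797 ± 0.0333 in wild type and 0.785 ± 0.0236 in the libraries labelled mutant, so it differed by less than the spread between libraries.

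**Figure D1:**
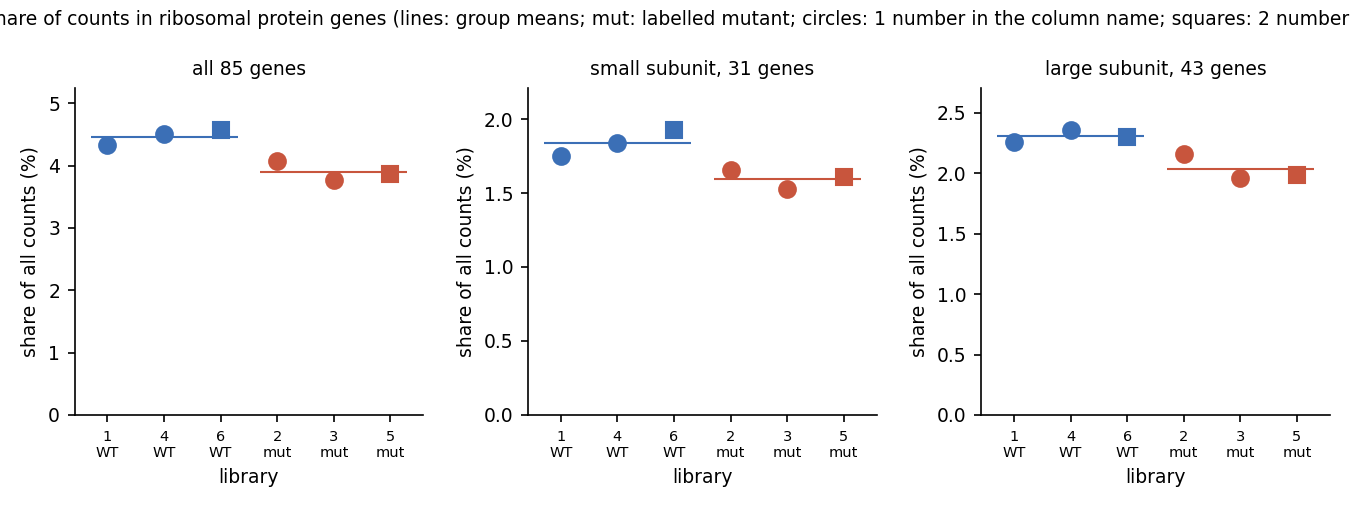
Percent of each library's counts that lay in all 85 genes, the 31 small subunit genes and the 43 large subunit genes, with a point for each of the 6 libraries and lines at the group means (circles, 1 number in the column name; squares, 2 numbers). For all genes together, the libraries labelled mutant lie between 3.76% and 4.08%, below the 4.33% to 4.57% of wild type.

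Of the 85 genes 82 passed the filter and none passed the edgeR threshold: 0 were called lower, against 0.0214% of all genes tested, and 0 higher, against 0.0499% (0.0712% in either direction). The lowest adjusted p was 0.0770, for Rpl22l1. Yet 80 of the 82 had a log2 fold change below 0, against 53.2% of all genes tested, with a median of -0.17 (quartiles -0.25 and -0.10) against -0.027 over all genes. Genes measured in the same libraries are not independent, so this count describes the 6 libraries and is no test. An unadjusted p under 0.05 was found for 12 (14.6%), all lower, close to the background of 12.4% lower, and for 0 higher, against 7.19%. The 3 wild-type values all lay above the 3 of the libraries labelled mutant for 32 genes (39.0%), against 16.9% of all genes, and no gene showed the opposite, against 9.91%. The other 50 overlapped. The median level of these genes was 493 CPM and that of all genes tested 23.4 CPM, and the part of level in the count of separated genes was not tested. In size the difference was modest: 13 genes were over 20% lower and 14 lay within 5% of wild type.

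**Figure D2:**
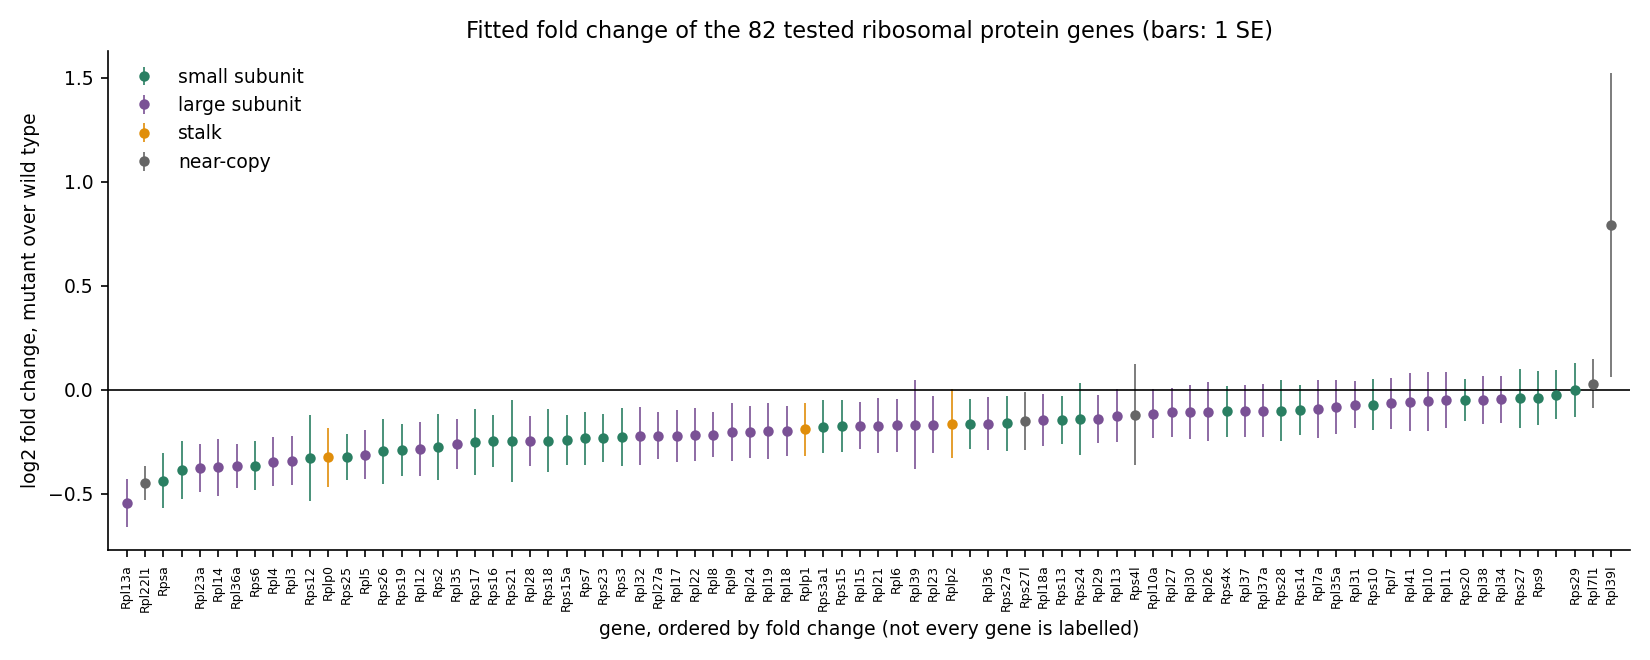
Log2 fold change of each tested gene, libraries labelled mutant over wild type, with bars of 1 SE, ordered by fold change and coloured by small subunit, large subunit, stalk and near-copy. All 31 small subunit, 43 large subunit and 3 stalk estimates lie below 0, from -0.54 for Rpl13a to -0.00056 for Rps29, and 2 of the 5 near-copies lie above.

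Other fits made calls among these genes. DESeq2 called 10 lower (12.2%), against 5.48% of the 12849 genes to which it gave an adjusted p, and 0 higher, against 4.84%. The 10 were Rpl13a, Rpl22l1, Rpsa, Rpl23a, Rpl36a, Rps6, Rpl4, Rpl3, Rps25 and Rpl5. The columns of libraries 5 and 6 carry a second number in their names, and with this naming difference as a term edgeR called 2 lower (2.44%), Rpl13a and Rpl22l1, against 5.60% of all genes, and 0 higher, against 3.08%. Within libraries 1 to 4 the mutant to wild-type log2 ratio was below 0 for 78 of 82 genes (median -0.16), against 52.9% of all genes. Between libraries 5 and 6, a single pair with no test, it was below 0 for 77 of 82 (median -0.22), against 49.0%. The direction was thus present on both sides of the naming difference. The labels do not say what the second number means.

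Library 3 had the lowest CPM of the 6 for 60 of the 82 genes, library 5 for 12, library 2 for 8 and library 4 for 2. Library 6 had the highest for 47, library 1 for 15, library 4 for 9, library 2 for 7 and library 5 for 4. Library 2, which had the lowest sum of osteoclast markers, was therefore rarely the lowest here.

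In the small subunit, all 31 estimates were below 0, with a median of -0.23 (-0.11 without library 6), and 11 genes (35.5%, against 16.9% of all genes) had groups that did not overlap. Rpsa, also known as the laminin receptor, had the lowest estimate (chr9:120127689-120132369, mm10, plus strand). It read 1378, 1308 and 1499.8 CPM in wild type (libraries 1, 4 and 6, the order used throughout), against 1043, 963 and 1084 CPM in libraries 2, 3 and 5. The groups were far apart relative to their spread, 1395 ± 97.0 against 1030.2 ± 61.5 CPM (SD, n = 3), which is -0.44 as a log2 fold change (SE 0.132, edgeR adjusted p = 0.149). Rps6, the protein phosphorylated by S6 kinases downstream of mTORC1, read 802, 811 and 781 against 666, 581 and 613 CPM. Its wild-type libraries lay within a narrow range, and all 3 libraries labelled mutant were below it (log2 fold change -0.36, SE 0.119, edgeR adjusted p = 0.167). Rps25, known for its role in translation from internal ribosome entry sites, read 560.2, 524 and 530.0 against 457, 406 and 428 CPM, also without overlap (log2 fold change -0.32, SE 0.112). Rps19, mutated in some patients with Diamond-Blackfan anaemia, read 531, 528 and 612 against 485, 433 and 449.6 CPM (log2 fold change -0.29) and was named after its values were seen.

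Low estimates in this subunit did not always come with separated groups. Rps12 read 614, 607 and 915 CPM in wild type and 552, 504 and 646 in the libraries labelled mutant, a log2 fold change of -0.33 (SE 0.207). Library 6 stood far above the rest, library 5 was above wild-type libraries 1 and 4, and without library 6 the estimate was -0.090. Rps26, which lies where the mRNA leaves the ribosome, read 417, 400.5 and 309.7 against 342, 301 and 275 CPM (log2 fold change -0.30, SE 0.158), and there library 6 was the lowest of wild type.

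At the other end, 6 small subunit genes had estimates within 0.08 of 0. Rps29, a zinc-binding protein, read 517, 502 and 577 CPM against 538, 478 and 578. The means were 532 ± 39.8 and 532 ± 50.2 CPM (SD, n = 3), a log2 fold change of -0.00056 with an SE of 0.131, and its sign turned under DESeq2 (0.029), DESeq2's size factors (0.032) and scaling by total counts (0.0040). DESeq2 and its size factors moved the median of all genes by 0.031 and 0.034, as much as they moved Rps29. The estimates were -0.041 for Rps9, -0.041 for Rps27, -0.048 for Rps20 and -0.071 for Rps10, with SEs of 0.103 to 0.141. Rps10 and Rps20 are the small subunit proteins that are tagged with ubiquitin when ribosomes collide.

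**Figure D3:**
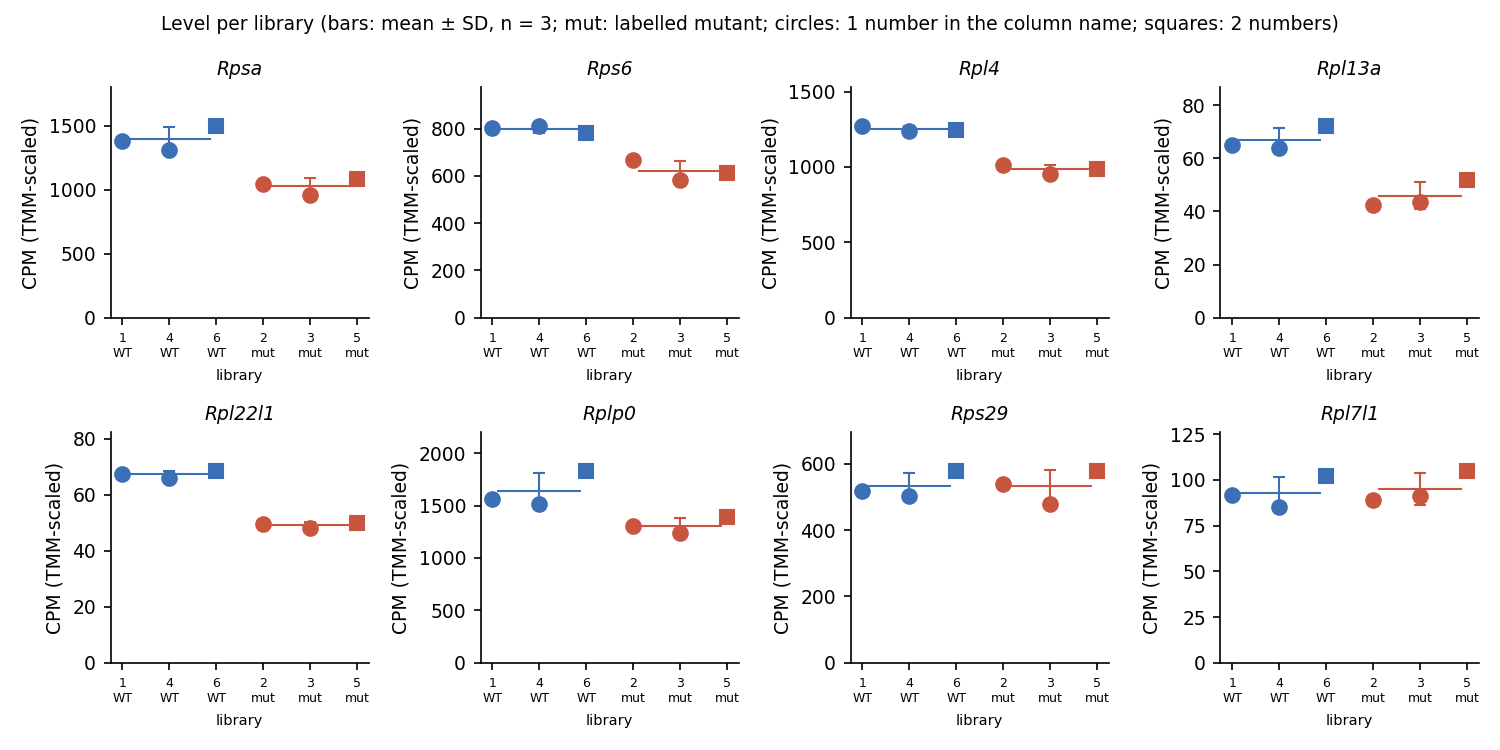
TMM-scaled CPM of 8 genes in the 6 libraries, each panel with its own axis from 0 and bars for mean ± SD over 3 libraries (circles, 1 number in the column name; squares, 2 numbers). Rpsa, Rps6, Rpl4, Rpl13a, Rpl22l1 and Rplp0 have every wild-type library above every library labelled mutant, while Rps29 and Rpl7l1 overlap.

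In the large subunit, all 43 estimates were below 0, with a median of -0.17, and 19 genes (44.2%, against 16.9% of all genes) had groups that did not overlap. Rpl13a, which is released from the ribosome in interferon-treated monocytes to repress translation of inflammatory mRNAs, had the lowest estimate of any member (chr7:45125558-45128761, mm10, minus strand). It read 65.1, 63.8 and 72.2 CPM in wild type and 42.4, 43.6 and 51.9 CPM in the libraries labelled mutant. That is 67.0 ± 4.49 against 46.0 ± 5.17 CPM (SD, n = 3), 31.4% lower, or -0.54 in log2 (SE 0.116, edgeR adjusted p = 0.0943). With the naming difference as a term the edgeR adjusted p was 0.0232, and DESeq2 gave 0.0232. Its level stood apart, at 53.9 CPM per kb of transcript, the lowest of the 77 genes without the near-copies, whose median was 687 CPM per kb. Of its transcript's stretches of 75 bases, the read length, 56.3% also occur in transcripts of other genes. Of all its stretches, 6.99% occur in pseudogene transcripts. Its exons overlap those of Gm45713, Mir5121 and Snord33 on the same strand. How the authors' counting treated shared reads is not known, and the part of sharing in its level was not tested.

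Rpl4 and Rpl3, which reach with long extensions to the exit tunnel and to the peptidyl transferase centre, had even values in wild type. Rpl4 read 1272, 1236 and 1243 CPM against 1012, 954 and 986 (log2 fold change -0.35, SE 0.119, edgeR adjusted p = 0.182, DESeq2 adjusted p = 0.00138). Rpl3 read 1043, 1046 and 1051 CPM against 833, 782 and 865 (log2 fold change -0.34, SE 0.119, edgeR adjusted p = 0.187, DESeq2 adjusted p = 0.0103). In both genes the spread within a genotype was small beside the gap between them. Rpl23a, which lies at the tunnel exit where the signal recognition particle docks, read 806, 742 and 794 against 623, 579 and 603 CPM (log2 fold change -0.38, SE 0.115). Rpl36a read 244, 225 and 247 against 197, 173 and 187 CPM (log2 fold change -0.36, SE 0.106). Rpl14 read 509.5, 515 and 435 against 414, 379 and 335 CPM (log2 fold change -0.37, SE 0.136), and in it libraries 5 and 6 were each the lowest of their genotype. None of these 3 had overlapping groups.

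Rpl5 and Rpl11 form a particle with the 5S ribosomal RNA and, when ribosome assembly is disturbed, bind the p53 regulator MDM2. Rpl5 read 913, 879.6 and 940.1 CPM against 773, 695 and 734 (log2 fold change -0.31, SE 0.119) and was named after its values were seen. Rpl11 read 419.8, 428 and 405 against 459.6, 349 and 402 (-0.050, SE 0.135). The groups of Rpl5 were apart and those of Rpl11 overlapped, with library 2 the highest of all, but the difference between these 2 genes was not tested. Rpl10, which joins the subunit late in its assembly, had an estimate of -0.056 (SE 0.144), and Rpl38, known for its part in translating Hox mRNAs, of -0.048 (SE 0.115). For Rpl34 it was -0.046 (SE 0.114), for Rpl41, which encodes a very short protein, -0.057 (SE 0.139), and for Rpl7 -0.065 (SE 0.121). All 5 had overlapping groups. In libraries 1 to 4 alone the estimate for Rpl34 was 0.026 and for Rps10 0.0050.

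The stalk, which recruits elongation factors, is built on Rplp0 with Rplp1 and Rplp2 as its arms, and all 3 estimates were below 0. Rplp0 read 1565, 1516 and 1832 CPM in wild type and 1302, 1236 and 1388 in the libraries labelled mutant (log2 fold change -0.32, SE 0.142, edgeR adjusted p = 0.282). Rplp1 read 1031, 882 and 967 against 794, 886 and 844 CPM (-0.19, SE 0.129). Rplp2 read 373, 302 and 439 against 299, 346 and 350.2 CPM (-0.16, SE 0.165), and without library 6 its estimate was -0.0085, and without library 2 it was -0.060. Only Rplp0 had groups that did not overlap.

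Of the 8 near-copies 5 were tested, with a median of -0.12, and 3 of these were below 0. Rpl22l1, a close relative of the RNA-binding protein Rpl22, read 67.4, 65.8 and 68.5 CPM in wild type and 49.6, 48.2 and 50.02 in the libraries labelled mutant. The values within each genotype were nearly equal, 67.2 ± 1.33 against 49.3 ± 0.952 CPM (SD, n = 3), 26.7% lower, or -0.45 in log2 (SE 0.0810, edgeR adjusted p = 0.0770). The adjusted p was 0.0341 in edgeR with the naming difference as a term and 0.00802 in DESeq2. Rpl22 itself read 265, 241 and 223 against 233, 191 and 203 CPM, overlapping (log2 fold change -0.22, SE 0.127). Rpl7l1, which acts in large subunit assembly, read 91.8, 85.2 and 102 against 89.1, 91.0 and 105 CPM (0.030, SE 0.117), beside Rpl7 at -0.065. Rps27l, a p53 target, had -0.15 (SE 0.140) beside Rps27 at -0.041, and Rps4l -0.12 (SE 0.243) beside Rps4x at -0.10. Rpl39l, best known from the testis, read 2.33, 1.86 and 6.81 against 2.03, 7.64 and 9.45 CPM, too few to place it (0.79, SE 0.731), beside Rpl39 at -0.17. Rpl3l, Rpl32l and Rps3a3 had 0 to 3 reads per library and were not tested, so a difference in them was not detectable at this depth.

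Some ribosomal proteins carry other names. Rack1, a signalling scaffold on the small subunit, read 935, 939 and 1038 CPM against 880.0, 806 and 915 without overlap (-0.16, SE 0.127, edgeR adjusted p = 0.574). Fau, which encodes a ubiquitin-like protein fused to Rps30, had a log2 fold change of 0.066 (SE 0.118), Rpl36al of -0.040 (SE 0.112) and Rps27rt, at about 1 CPM, of 0.44 (SE 1.19).

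Divided by the length of the principal transcript, levels over all 6 libraries were highest for Rplp1, at 1805 CPM per kb, followed by Rpl10 at 1515, Rpl41 at 1483, Rps29 at 1363, Rps12 at 1295 and Rpl23a at 1235. Rps9 (1100.5), Rpl19 (1044) and Rps4x (985) followed among the subunit genes. Leaving out the near-copies, the lowest after Rpl13a were Rps20, at 106 CPM per kb for an annotated transcript of 3706 bases, and Rpl24 at 151. Among the near-copies, Rpl39l (9.13) and Rps4l (14.6) were below Rpl13a, and Rpl7l1 (71.8) and Rpl22l1 (106) were above it. Stretches of 75 bases found in other genes' transcripts made up a median of 49.9% of a member's transcript, from 0% in Rps3 to 98.5% in Rps27, with 42 of 85 genes over 50% and 13 under 10%. Matches on either strand were counted, also those in genes that overlap the member at its own place in the genome. Exons overlap those of a gene on the opposite strand for 19 members and on the same strand for 27. Across 77 genes the Spearman correlation of log2 fold change was -0.17 with mean CPM, -0.33 with transcript length and -0.11 with the shared stretches. That of CPM per kb with the shared stretches was 0.18. These values are given as descriptions because the genes share libraries and depth.

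**Figure D4:**
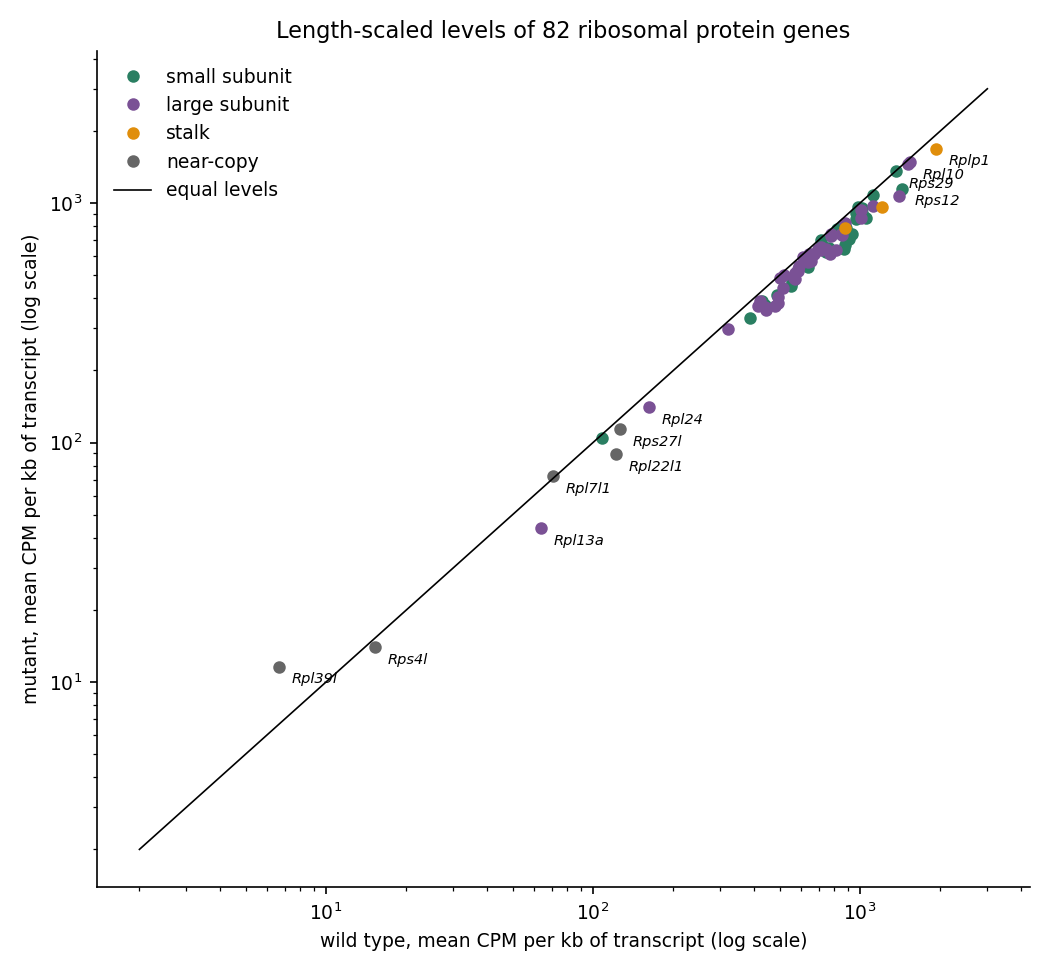
Mean level of each of the 82 genes in CPM per kb of principal transcript, in wild type (x axis) and in the libraries labelled mutant (y axis), both log scales, with a line of equal levels. Rplp1 lies highest at 1924 and 1686, and Rpl13a at 64.0 and 43.9 lies beneath the other large subunit genes.

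Some genes also differed along the naming difference. Library 6 stood above the mean of libraries 1 and 4, and library 5 above that of libraries 2 and 3, by 0.59 and 0.34 in log2 for Rpl39, 0.58 and 0.29 for Rps12, and 0.59 and 0.27 for Rps21. For Rps26 the same values were -0.40 and -0.23 and for Rpl14 -0.24 and -0.24. These genes were chosen for this pattern after their values were seen, and the differences were not tested.

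The genes that act with the ribosome were read from lists by function, and edgeR called none of them in either direction, against 0.0712% of all genes. Counts of estimates below 0 in each list stand beside 53.2% of all genes tested. The elongation and initiation lists had median levels of 402 and 183 CPM, against 23.4 CPM for all genes tested. The part of level in their counts was not tested. All 8 elongation factor genes had estimates below 0 (median -0.26), with an unadjusted p under 0.05 for 2, against 12.4% of all genes, and non-overlapping lower groups for 4, against 16.9%. Eef2, which moves the ribosome along the mRNA, read 2904, 2755 and 2909 CPM against 2256, 1990.2 and 2129 (log2 fold change -0.43, SE 0.132, edgeR adjusted p = 0.154), and Eef1a1, which delivers aminoacyl-tRNA, read 9259, 8612 and 8549 against 7565, 6541 and 7275 (-0.31, SE 0.141). In both, every library labelled mutant was below every wild-type library. Of 32 initiation genes 29 were below 0 (median -0.18), 7 (21.9%) with lower non-overlapping groups, near the 16.9% of all genes, and 1 with higher, against 9.91%. Pabpc1, the poly(A)-binding protein and itself a TOP mRNA, read 1511, 1298 and 1287 CPM against 729, 924 and 869 (-0.70, SE 0.154, edgeR adjusted p = 0.0954, and 0.0410 with the naming difference as a term). Eif4a1, the initiation helicase, overlapped (-0.17, SE 0.169, and from -0.28 to -0.031 without 1 library). With the naming difference as a term, edgeR also called Eif4b (adjusted p = 0.0494) and Eif3l (adjusted p = 0.0372) lower, both named after their values were seen. That fit called 3 of the 32 initiation genes lower, against 5.60% of all genes.

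Among 18 other genes with TOP mRNAs, 12 of which also stand in other lists here, 17 were below 0, against 53.2% of all genes, with a median of -0.28. In the lower direction 8 had an unadjusted p under 0.05, against 12.4% of all genes. Non-overlapping lower groups were seen for 10 (55.6%), against 16.9%. Their median level was 392 CPM, against 23.4 CPM for all genes tested, and the part of level in these counts was not tested. Vim, the intermediate filament vimentin, read 3542, 3068 and 3899 CPM against 1348, 2362 and 2307 (-0.80, SE 0.250, edgeR adjusted p = 0.157). Library 2 was lowest, as it was for the osteoclast markers. Naca, a chaperone of nascent chains, read 436, 388 and 453 against 354, 329 and 357 (-0.30, SE 0.115). Npm1, which is also an assembly factor, overlapped (-0.21, SE 0.151, and from -0.35 to -0.090 without 1 library).

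The genes that make ribosomal RNA and assemble ribosomes had medians nearer 0. RNA polymerase I genes were below 0 in 15 of 20 (median -0.14), with 4 lower and 2 higher non-overlapping groups, near the 16.9% and 9.91% of all genes. Ubtf, the upstream binding factor of ribosomal DNA, read 129, 137 and 158 CPM against 104, 107 and 115 (-0.38, SE 0.115), and Polr1d, a polymerase subunit, 115, 102 and 137 against 80.1, 87.6 and 90.2 (-0.46, SE 0.135). Neither overlapped. Of 57 tested assembly and rRNA processing genes 48 were below 0 (median -0.11), with 6 lower (10.5%) and 1 higher non-overlapping groups, both under the 16.9% and 9.91% of all genes. Library 2 was the lowest, at a median of -0.36 in log2 CPM around each gene's mean, where library 3 stood at -0.0011. For the ribosomal proteins the order of these libraries was the opposite, -0.019 in library 2 and -0.20 in library 3. Ncl, nucleolin, had a log2 fold change of -0.11 (SE 0.146).

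**Figure D5:**
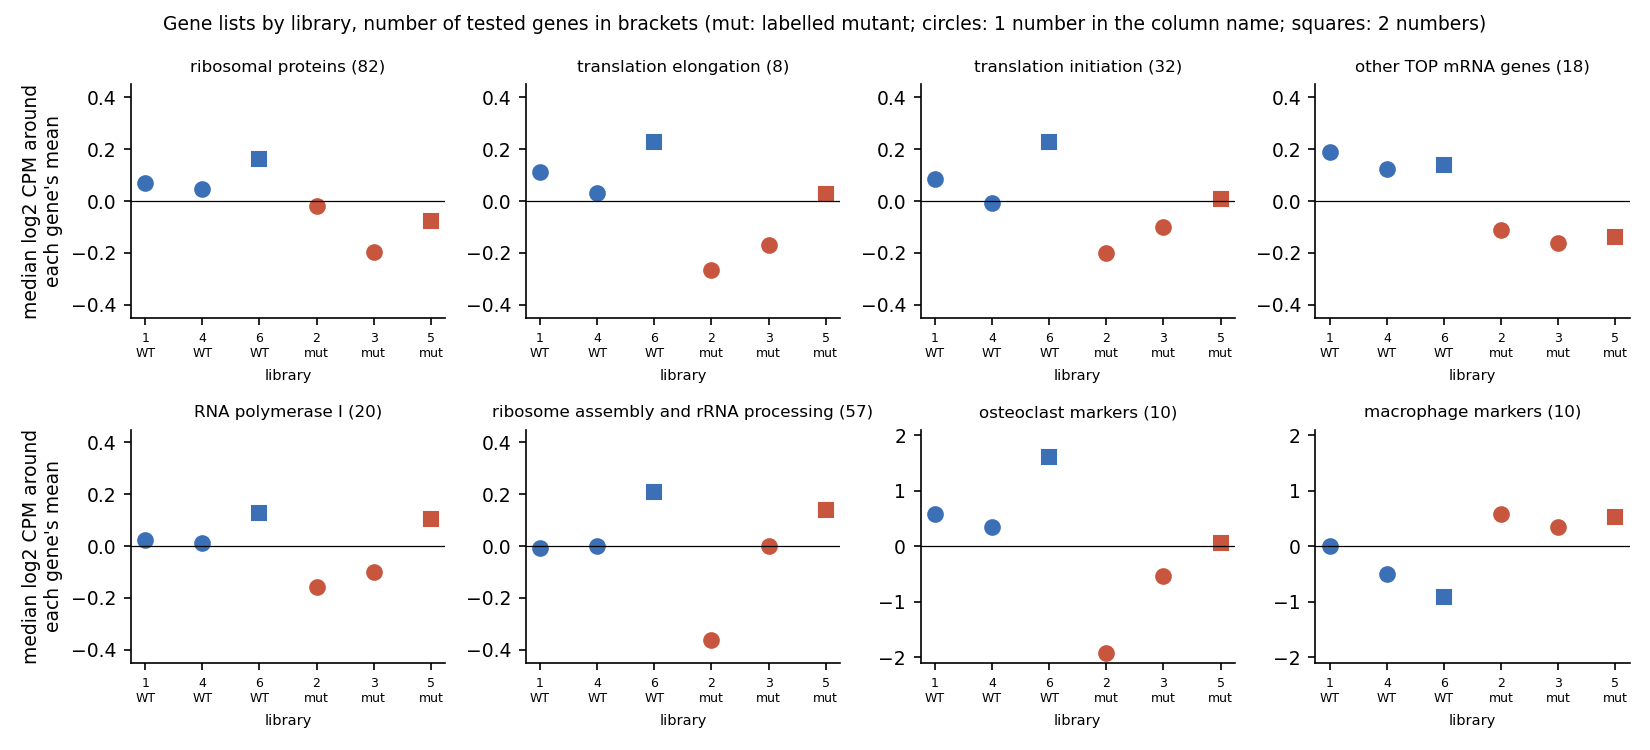
Median over each list of log2 CPM around each gene's mean, by library (circles, 1 number in the column name; squares, 2 numbers), with a wider axis for the 2 marker lists. The ribosomal proteins run from 0.16 in library 6 to -0.20 in library 3, and the osteoclast markers from 1.61 in library 6 to -1.93 in library 2.

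The regulators of this system varied in direction. Of 21 tested genes for mTORC1, S6 kinase, 4E-BP, LARP1 and MYC regulation 12 were below 0 and 9 above (median -0.082). Larp1 overlapped (-0.35, SE 0.195, and from -0.52 to -0.18 without 1 library), as did Eif4ebp2, an inhibitor of cap-dependent initiation (0.20, SE 0.145). Pdcd4, an inhibitor of Eif4a1 named after its values were seen, read 60.5, 64.4 and 52.99 CPM against 47.1, 36.1 and 28.3 (-0.67, SE 0.197), and edgeR called it lower with the naming difference as a term (adjusted p = 0.0343). That fit called 1 of the 21 lower, against 5.60% of all genes. Of 17 nascent-chain and ribosome-associated genes 13 were below 0 (median -0.18). Hspa8, a chaperone of new chains, had -0.11 (SE 0.132), and the ribosome rescue factor Hbs1l, named after its values were seen, -0.45 (SE 0.0878, edgeR adjusted p = 0.0855, and 0.0378 with the naming difference as a term). With that term edgeR called 1 of the 17 lower, against 5.60% of all genes. Among 11 genes of nucleolar stress and the p53 response 4 were below 0 and 7 above (median 0.079). Mdm2 (-0.12, SE 0.0949) and Ccng1 (-0.035, SE 0.141) both overlapped. Higher non-overlapping groups were seen for 2 of the 11, against 9.91% of all genes: Bax, a promoter of apoptosis (0.35, SE 0.0984, edgeR adjusted p = 0.137, DESeq2 adjusted p = 0.0204), and Zmat3 (0.33, SE 0.144, edgeR adjusted p = 0.286). Both were named after their values were seen, and Bax was the 1 gene of this list with an unadjusted p under 0.05, against 7.19% of all genes in the higher direction.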

How the data were processed

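Per the labels' protocols, libraries of mRNA were made with a stranded kit and sequenced as single 75-base reads. TopHat2 2.0.13, Bowtie2 2.2.3, SAMtools 0.1.19 and mouse build mm10 are named in the submitters' processing notes. Neither the counting program nor its strand setting is given in the sources used here. The authors deposited raw counts per gene, and of 23264 rows 60 repeated a gene and were dropped. Column names gave the genotype and a library number, but not the labels' replicate numbers or sexes. The names therefore do not match sex to a library. Sex was not read from the expression of sex-linked genes, and no fit accounts for it. Nothing in the labels says that libraries came from separate animals, so p-values measure only the spread between these libraries, which may be technical. No 2 libraries were alike within sampling noise (the lowest chi-square over its degrees of freedom was 25.7).

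Genes were filtered with filterByExpr, and TMM-scaled counts were fitted in edgeR 4.0.16 (R 4.3.3) by quasi-likelihood, with genotype as the only term and an adjusted p threshold of 0.05. The alternatives were DESeq2 1.42.0, other scalings, no filter, the naming difference as a term, and leaving out libraries. Transcript lengths and shared stretches came from the GENCODE M21 annotation, which held 99.8% of the genes, using 1 principal transcript per gene. The edgeR test was checked on simulated data, with planted folds larger in size than that of any ribosomal protein gene tested. That check therefore does not cover differences as small as those described here. The members and lists were chosen with earlier results of these data known. Genes named were those with the 6 lowest and 6 highest fold changes per subunit among means of at least 10 CPM, the 4 highest levels per length, the stalk, the near-copies with the members they resemble, and the 2 most abundant genes of each list. Other genes, and those given as the end of a range, were named after their values were seen. Some genes that the rule picks are not reported here by name, but every count and median includes them. Shares have 95% exact Clopper-Pearson intervals, which cover counting error only.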

Additional observations from a re-analysis of the deposited data

How the results depend on the processing

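No paired analysis was possible because the column names carry no replicate number. With genotype alone, edgeR called 7 genes higher and 3 lower. The calls were 622 and 704 with DESeq2, 433 and 786 with the naming difference as a term, 42 and 46 with scaling by total counts, 46 and 35 without the filter, and 1 and 0 in libraries 1 to 4 (678 and 1140 at an unadjusted p under 0.05). Leaving out 1 library gave 0 to 2 higher and 0 to 1 lower. Ribosomal protein genes called lower went from 0 (12 at an unadjusted p under 0.05) to 10 with DESeq2 and 2 with the naming difference as a term, and stayed at 0 without each library in turn. The median over all of them ranged from -0.21 to -0.13 without 1 library, and the number below 0 was 72 (without library 6) to 80. The small subunit median ranged from -0.23 to -0.11, the last without library 6. Tet2 passed the threshold with DESeq2 (-0.54, adjusted p = 0.00933) and with the naming difference as a term (-0.57, edgeR adjusted p = 0.0400). DESeq2 moved the median of all genes by 0.031, and leaving out library 4 moved it by 0.089, to 0.062. The cause of these changes was not tested.

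The sign turned in some fits for genes near 0: with DESeq2 for Rps29 (0.029), with DESeq2's size factors for Rps29 (0.032), with total counts for Rps29 (0.0040), and in libraries 1 to 4 for Rpl34 (0.026) and Rps10 (0.0050). Without 1 library, log2 fold changes ranged across 0 for 16 named genes: Rpl39 from -0.30 to 0.073, Rpl10 from -0.12 to 0.029, Rpl11 from -0.12 to 0.041, Rpl34 from -0.079 to 0.039, Rpl38 from -0.094 to 0.013, Rpl41 from -0.13 to 0.022, Rpl7l1 from -0.053 to 0.12, Rps10 from -0.11 to 0.029, Rps27 from -0.13 to 0.042, Rps29 from -0.071 to 0.077, Rps4l from -0.28 to 0.088, Rps9 from -0.066 to 0.022, Rpl36al from -0.10 to 0.058, Rps27rt from -0.48 to 1.16, Ccng1 from -0.13 to 0.089 and Ncl from -0.19 to 0.019. Libraries 5 and 6 give 1 sample per genotype and no test. Precision is limited by variation between the 3 libraries of a genotype, with a common biological coefficient of variation in edgeR of 40.9% (23.5% once naming is in the model). These values are common to all genes tested and do not give the spread of the ribosomal protein genes.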

Other observations

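Rows for pseudogenes of ribosomal protein genes, 68 in all and outside the name rule, differed between libraries along the naming difference. Summed, they held 444 and 791 counts in wild-type libraries 1 and 4 and 105 in library 6, and 648 and 492 in libraries 2 and 3 and 110 in library 5. Per 1000 counts of the named genes that was 1.17, 1.42 and 0.179 in wild type and 1.11, 1.37 and 0.205 in the libraries labelled mutant. The processed copies Rps27rt (12, 25 and 1 counts in wild-type libraries 1, 4 and 6, and 20, 30 and 3 in libraries 2, 3 and 5) and Rpl37rt (54, 99 and 12, and 72, 75 and 21) were likewise lowest in libraries 6 and 5 of their genotypes. In raw counts their order between libraries 2 and 3 was the opposite of that of the summed pseudogenes. Library 2 had the larger total, 14267135 against 9519978 counts. Per 1000 counts of the named genes the pseudogenes were also higher in library 3, at 1.37 against 1.11. These rows were looked at after the data were seen, and the difference along the naming was not tested.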
